A study of Mus musculus with 10 samples.

Results

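RNA was sequenced from GFP-positive and GFP-negative cells sorted out of primary mouse melanomas of the skin. GFP-positive cells carry the label c-Myc-high and GFP-negative cells the label c-Myc-low. The comparison uses the 4 skin libraries, 2 of each class, out of 10 libraries in the series. The other 6 come from lymph node metastases, 3 of each class, and enter only the estimate of spread and a closing comparison. All mice are labelled C57BL/6:SV129. All cells were sorted by flow cytometry from fresh tumours. None of the groups is a treated or normal tissue control, so GFP-negative cells from primary tumours are the reference. The sources used here give neither the age of the mice, nor the alleles that drive the tumours, nor the construct that carries GFP. RNA was extracted with a low-input kit and amplified before library preparation. Transcript rows were summed by gene name, and 16805 of 34162 gene names passed the filter on low counts and were tested. The study's title names the energy sensor AMPK, survival of c-Myc-positive melanoma cells and oxidative stress, and the question here is which genes differ between the c-Myc classes within the primary tumour.

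c-Myc is a transcription factor that binds DNA together with its partner MAX, most tightly at the E-box sequence CACGTG. It is best known for raising genes of ribosome production, translation, nucleotide synthesis and the cell cycle. MAX also pairs with the MXD and MXI1 proteins, which repress at the same sites. AMPK is a kinase of a catalytic alpha, a scaffolding beta and a nucleotide-sensing gamma subunit, switched on when cellular energy is low, and it promotes fatty acid oxidation while restraining growth.

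The c-Myc-high libraries held 5075407 and 1603012 counts and the c-Myc-low libraries 6844328 and 3314654. Everywhere below, expression is given in TMM-normalised CPM, a count scaled to the size of its library, replicate 1 before replicate 2 and c-Myc-high before c-Myc-low. A total of 3 counts corresponds to 0.72, 2.8, 0.362 and 0.867 CPM in those libraries. Log CPM values over genes correlated at r = 0.621 between the c-Myc-high libraries and at 0.914 between the c-Myc-low libraries, as a description over genes that share each library. Replicate 2 of the c-Myc-high group stood apart from the other 3 libraries. Xist, the RNA that silences an X chromosome in female cells, was measured at 5376 and 17.7 against 3571 and 3459 CPM, and the sum of 4 Y-linked genes was 18.0 and 199 against 12.3 and 8.09 CPM. The 2 c-Myc-high libraries therefore did not come from 1 single mouse. Neither c-Myc-low library showed the Xist and Y-linked values of c-Myc-high replicate 2. That replicate thus has no c-Myc-low library with like values, and in it mouse and c-Myc class cannot be told apart. The labels do not say otherwise which libraries stand for different mice, and every p-value here reflects only the spread among these samples.

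Fewer genes were seen in the c-Myc-high libraries. After drawing 1200000 counts from each, 12704 and 12952 genes had at least 1 count, against 16279 and 16535 in the c-Myc-low libraries (12828 ± 175 against 16407 ± 181, SD, n = 2 each). The groups did not overlap, and the exact two-sided permutation p was 0.333, the smallest that 2 against 2 can give. Of genes with 10 or more counts in a c-Myc-high library, 8.81% and 9.24% had 0 counts in the other c-Myc-high library. The same shares in the c-Myc-low group were 0.579% and 0.479%. In the full counts, 360 genes had no count in either c-Myc-high library and at least 10 in both c-Myc-low libraries, against 4 genes the other way. With 1200000 counts drawn per library these numbers were 123 and 5. The part that amplification or input amount plays in these differences was not tested. In bulk samples like these, fewer cells of a type and less RNA per cell cannot be told apart.

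No gene passed an adjusted p of 0.05 between the c-Myc classes in edgeR's quasi-likelihood test, 0.0% of genes in either direction. The lowest adjusted p was 0.341. At an unadjusted p under 0.05 there were 721 genes higher (4.29%) and 1232 lower (7.33%) in the c-Myc-high libraries. DESeq2, which assigned an adjusted p to 14180 genes, called 197 higher (1.39%) and 201 lower (1.42%), and for 354 of these 398 the CPM values of the groups did not overlap. Groups of genes are described by how many members do not overlap between the classes, meaning that both c-Myc-high values lie above, or below, both c-Myc-low values. Over all genes tested, 1817 were higher by this measure (10.8%) and 5006 lower (29.8%), and 1136 of the lower ones had no count in either c-Myc-high library. Among the 7251 genes with a mean of at least 20 CPM, the shares were 18.3% higher and 17.1% lower. Taken alone, c-Myc-high replicate 1 lay above both c-Myc-low libraries for 34.0% of genes and below them for 48.1%. Replicate 2 lay above for 28.0% and below for 52.8%. The median log2 difference, c-Myc-high minus c-Myc-low, was -0.12 over all genes and 0.46 over the abundant ones. That median was 0.00 with RLE factors and -0.32 with upper quartile factors, so list medians shift by a like amount with the scaling.

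Myc itself, at chr15:61985391-61990374, did not separate the classes. It measured 997 and 104 CPM in the c-Myc-high libraries and 162 and 318 CPM in the c-Myc-low libraries (log2 difference 1.20, SE 0.98, adjusted p = 0.623). The library labelled c-Myc-high replicate 1 had the most Myc RNA and the library labelled c-Myc-high replicate 2 the least, so the sort label and the RNA go together in 1 of the 2. Without replicate 1 the log2 difference was -1.08. Directions below are therefore those of the sort labels. Max, the obligate partner, was higher in both, at 148 and 236 against 73.9 and 97.7 CPM (log2 difference 1.16, SE 0.75). The MAX-binding repressor Mxi1 was lower in both, at 6 and 33.6 against 62.2 and 55.2 CPM (log2 difference -1.60, SE 0.92), and its exons overlap another annotated gene. Mxd1, another repressor of this family, followed Myc instead, at 517 and 23.3 against 56.2 and 66.2 CPM, and overlapped. Mlxip, which encodes the glucose-responsive partner MondoA, was lower in both, at 11.5 and 25.2 against 42 and 43.6 CPM. Over the 11 members tested, 1 was higher (9.09%) and 2 were lower (18.2%) without overlap, beside 10.8% and 29.8% of all genes. Their median log2 difference was 0.61. That median was 0.17 without c-Myc-high replicate 1 and -1.04 without replicate 2.

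Genes widely known as c-Myc targets lay mostly on the higher side. Of 51 tested, 16 were higher in both c-Myc-high libraries (31.4%) and 7 lower (13.7%), beside 10.8% and 29.8% of all genes. Among its 39 abundant members the counts were 16 and 5, beside 18.3% and 17.1% of abundant genes. No member passed edgeR's adjusted test, and DESeq2 called none. To show what a c-Myc binding sequence looks like in front of these genes, the 5 targets that were higher in both and have an E-box within their promoter in the RefSeq table are printed here, 60 bases each on the gene's own strand, 5′ to 3′, in GRCm38.p6, with CACGTG in capitals. They are Eif4a1 (an RNA helicase of translation initiation, chr11:69672580-69672639, minus strand, 189 bases before the start), Eif4e (the cap-binding protein, chr3:138527177-138527236, plus strand, 64 before), Hspd1 (a mitochondrial chaperone, chr1:55088291-55088350, minus strand, 80 before), Nme1 (a nucleoside diphosphate kinase, chr11:93968273-93968332, minus strand, 18 before) and Ran (the GTPase of nuclear transport, chr5:129020011-129020070, plus strand, 118 before).
Eif4a1: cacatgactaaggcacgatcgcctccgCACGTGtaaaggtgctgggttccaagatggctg
Eif4e: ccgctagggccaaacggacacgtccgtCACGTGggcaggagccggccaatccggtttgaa
Hspd1: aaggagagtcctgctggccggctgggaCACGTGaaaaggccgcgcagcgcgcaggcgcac
Nme1: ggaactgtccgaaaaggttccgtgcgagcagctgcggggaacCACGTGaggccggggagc
Ran: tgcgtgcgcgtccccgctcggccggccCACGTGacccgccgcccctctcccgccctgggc

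The motif reads the same on both strands, and it was searched from 250 bases before to 50 after each start in that table. It was found for 12 of 45 canonical targets with a promoter (26.7%), 5 of the 14 that were higher in both (35.7%), and 2187 of all 27025 genes (8.09%). Among tested genes the share was 11.2%, and among tested genes higher in both 12.3%. Among tested genes, 12.02% of those with the motif were higher in both and 27.98% lower, against 10.82% and 29.26% of those without it. Their median log2 differences were -0.03 and -0.11. A match is a description of the letters and not a measured binding site.

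Eif4a1 measured 211 and 514 CPM in the c-Myc-high libraries and 109 and 99.1 CPM in the c-Myc-low libraries (log2 difference 1.80, SE 0.89), and small RNA genes lie within its exons. Eif4e measured 30.2 and 169.8 against 29.7 and 20.2 CPM, Nme1 183 and 96.1 against 42.6 and 34.7 CPM, Hspd1 37.4 and 27.1 against 20.7 and 16.8 CPM and Ran 423 and 59.7 against 55.3 and 45.1 CPM. In Eif4e and Ran 1 c-Myc-high value lay close to the c-Myc-low range and the other well above it. The abundant nucleolar gene Ncl (nucleolin) was even between replicates, at 646 and 660.5 against 351 and 293 CPM (log2 difference 1.02, SE 0.70, adjusted p = 0.558). Npm1 (nucleophosmin) stood further apart, at 115 and 466 against 25.4 and 15.6 CPM (log2 difference 3.82, SE 1.44), as did the chromatin-associated Ptma (prothymosin alpha), at 45.4 and 633 against 26.5 and 18.2 CPM. Nolc1, a nucleolar chaperone, measured 352 and 95.2 against 35 and 36.1 CPM (log2 difference 2.66, SE 0.97, adjusted p = 0.419). Odc1, the rate-limiting enzyme of polyamine synthesis and a textbook target, had 63.8 and 0.933 against 9.52 and 5.49 CPM and overlapped. Dkc1, the pseudouridine synthase of the nucleolus, went the other way without overlap, at 13.9 and 11.2 against 46.1 and 62.4 CPM (log2 difference -2.10, SE 0.84, adjusted p = 0.419), and shares exon sequence with Mpp1. The list median was 0.68, -0.27 without c-Myc-high replicate 1 and 0.91 without replicate 2. Replicate 1 alone was above both c-Myc-low libraries for 34 targets and below for 12, and replicate 2 for 21 and 25.

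**Figure D1:**
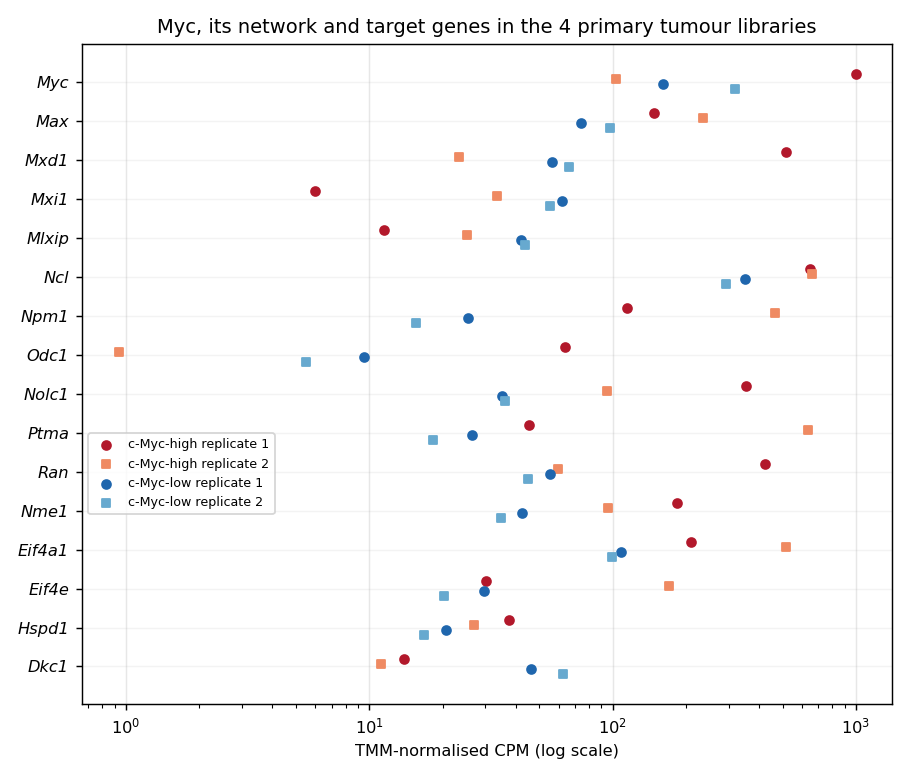
TMM-normalised CPM (log axis) of Myc, its network and 11 target genes in the 4 primary tumour libraries, 1 point per library. Myc runs from 104 CPM in c-Myc-high replicate 2 to 997 CPM in replicate 1 and spans the c-Myc-low points, while Ncl, Npm1, Nolc1 and Ptma lie higher, and Dkc1, Mxi1 and Mlxip lower, in both c-Myc-high libraries.

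Translation initiation genes lay mostly on the higher side. Of 36 translation initiation genes, 14 were higher (38.9%) and 4 lower (11.1%) in both, beside 10.8% and 29.8% of all genes. All of these were among the 35 abundant members, beside 18.3% higher and 17.1% lower of abundant genes. Replicate 1 of the c-Myc-high group alone was above both c-Myc-low libraries for 24 members and below for 8, and replicate 2 for 18 and 16. Besides the helicase and cap-binding genes above, the higher ones included the eIF3 subunits Eif3h, Eif3i and Eif3k and the scaffold Eif4g1. Eif3k measured 150.5 and 58.8 against 36.3 and 21.1 CPM (log2 difference 1.87, SE 0.88, adjusted p = 0.434). Eif2b4, a subunit of the exchange factor that recharges eIF2, measured 71.5 and 33.6 against 7.11 and 11 CPM, though its exons overlap Snx17. The 4 lower members were Eif2b5, Eif3l, Eif4g2 and Eif5. The median of 0.66 kept its sign without c-Myc-high replicate 1 (0.41) and without replicate 2 (0.68). Of the 21 alternative settings, 2 gave a median of the other sign.

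For ribosome biogenesis, 9 of 46 genes were higher in both (19.6%) and 5 lower (10.9%), beside 10.8% and 29.8% of all genes. The list median was 0.68 (0.05 without replicate 1 and 0.45 without replicate 2 of the c-Myc-high group). Of its 37 abundant members 8 were higher, a share near the 18.3% of abundant genes. Noc3l, a nucleolar protein of large subunit maturation, measured 161 and 44.8 against 26.3 and 17.3 CPM (log2 difference 2.24, SE 0.97, adjusted p = 0.423). Nhp2, a core protein of box H/ACA particles, was at 838 and 28 against 22.9 and 13.3 CPM, and Bysl, needed for the small subunit, at 517 and 43.8 against 25.8 and 15.3 CPM. The large values of both came from c-Myc-high replicate 1, and both share exon sequence with a neighbour, Rmnd5b and Ccnd3. Tcof1, a cofactor of ribosomal RNA transcription, overlapped, at 357 and 18.7 against 34.4 and 22.8 CPM.

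Cytosolic ribosomal protein genes were split. 18 of 66 were higher in both and 13 lower, 27.3% and 19.7%, beside 10.8% and 29.8% of all genes. Rpl7 measured 237 and 146 against 9.89 and 17 CPM (log2 difference 3.83, SE 1.10, adjusted p = 0.419), Rpl26 21.8 and 76.5 against 3.26 and 3.18 CPM (log2 difference 3.92, SE 1.26), and Rpsa 28.1 and 85.8 against 2.89 and 6.07 CPM (log2 difference 3.67, SE 1.18). DESeq2 called these 3 higher and no member lower. Rps2, Rps3, Rps12 and Rpl7a were among the lower ones. The list median was 0.54, but -0.28 without c-Myc-high replicate 1. Ribosomal protein genes have many near-identical processed copies, so their reads may be divided among names and single values are uncertain.

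Mitochondrial genes parted by pathway. Respiratory chain and ATP synthase subunits leaned higher, with 20 of 76 higher in both (26.3%) and 13 lower (17.1%), beside 10.8% and 29.8% of all genes. Of the 62 abundant members 19 were higher and 7 lower, beside 18.3% and 17.1% of abundant genes. Replicate 1 of the c-Myc-high group alone was above both c-Myc-low libraries for 46 members and below for 26, and replicate 2 for 34 and 37. Sdhb, the iron-sulphur subunit of complex II, measured 72.5 and 42 against 11.6 and 13.3 CPM (log2 difference 2.21, SE 0.84, adjusted p = 0.419). The ATP synthase subunits Atp5e and Atp5j2 measured 383 and 45.7 against 40.8 and 30.1 CPM and 49.9 and 119 against 10.2 and 15.6 CPM, and Ndufa3 of complex I measured 439 and 65.3 against 34.8 and 46.2 CPM with exons that overlap Tfpt. The median was 0.80, 0.05 without c-Myc-high replicate 1, and 0.69 without replicate 2.

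Fatty acid oxidation and TCA cycle genes leaned the other way. 15 of 32 were lower in both (46.9%) and 5 higher (15.6%), beside 29.8% and 10.8% of all genes. The median of -0.73 was negative in all 21 alternative settings. Of the 22 abundant members 7 were lower and 4 higher, beside 17.1% and 18.3% of abundant genes, so the higher count lay near that share. The lower genes span the oxidation spiral: the acyl-CoA dehydrogenases Acadm, Acadl and Acadvl, the carnitine shuttle genes Cpt2 and Slc25a20, and Hadh and Hadhb. Acadvl, which starts oxidation of very long chains, had 15.8 and 20.5 against 45.8 and 29.2 CPM, and Acadm, the medium-chain enzyme, 2.16 and 9.33 against 19 and 17.3 CPM. Cpt2, which re-forms acyl-CoA inside mitochondria, had 1.92 and 5.6 against 14.7 and 20.2 CPM (log2 difference -2.28, SE 1.39). Etfb, which passes electrons from these enzymes to the respiratory chain, had 1.68 and 2.8 against 18.9 and 10.7 CPM (log2 difference -2.77, SE 1.04, adjusted p = 0.419), and exons shared with 2 other genes. Eci1, an isomerase for unsaturated chains, had a single count in the c-Myc-high group, at 0.24 and 0 against 3.98 and 9.25 CPM, and with the counts and depths of each group pooled its c-Myc-low level was 29 times (95% interval 5.02 to 1160.0) the c-Myc-high level. Against this, the TCA cycle genes Idh3g and Mdh2 were higher in both, at 314 and 41 against 30 and 32.4 CPM and 379 and 1124 against 159 and 106 CPM (log2 difference 2.51, SE 0.97, adjusted p = 0.419). Acadvl, Acadm and Cpt2 were chosen after their values were seen.

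In glycolysis 1 of 27 genes was higher in both (3.7%) and 5 lower (18.5%), beside 10.8% and 29.8% of all genes. The median of 0.09 changed sign in 5 of 21 settings. The kinases Pdk1 and Pdk2, which restrain pyruvate entry into the TCA cycle, were both lower. Pdk1 had 7.44 and 23.3 against 61.4 and 74 CPM (log2 difference -2.16, SE 0.95, adjusted p = 0.424). Pdk2 had 0 and 0 against 6.99 and 10.7 CPM, so it was at least 14.1-fold lower by the floor of 3 counts over the c-Myc-high group, and DESeq2 called it. Pfkm, the muscle-type phosphofructokinase, had 1.44 and 0 against 8.08 and 10.4 CPM and shares exon sequence with Senp1. The enolase gene Eno1 overlapped, at 219 and 14.9 against 36.9 and 18.8 CPM.

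Hypoxia response genes leaned lower, 8 of 20 lower and 1 higher in both, with a median of -0.22 that was negative in all 21 settings. Of its 17 abundant members 7 were lower, beside 17.1% of abundant genes. Egln1, the prolyl hydroxylase that marks HIF-1 alpha for destruction and is itself induced in low oxygen, was close between replicates, at 57.8 and 61.6 against 177 and 201 CPM (log2 difference -1.66, SE 0.72, adjusted p = 0.42). P4ha1, which hydroxylates collagen, overlapped, at 303 and 36.4 against 38 and 40.7 CPM.

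The AMPK subunits did not move as a unit. Prkaa1, the alpha 1 catalytic subunit, was lower in both c-Myc-high libraries, at 41.5 and 17.7 against 65 and 68.8 CPM (log2 difference -1.16, SE 0.85, adjusted p = 0.577). Prkag1, the gamma 1 subunit, was higher in both, at 44.4 and 66.2 against 13.7 and 13.6 CPM (log2 difference 2.01, SE 0.98, adjusted p = 0.44), with exons overlapping B130046B21Rik. Prkab1, the beta 1 subunit, overlapped narrowly, at 216 and 20.5 against 24.8 and 18.8 CPM, and its log2 difference was -1.63 with the top transcript row alone in place of the sum. Prkaa2, the alpha 2 subunit, overlapped at low levels, at 5.04 and 7.46 against 3.5 and 12.7 CPM. Among regulators, the folliculin partner Fnip1 was lower in both, at 8.4 and 13.1 against 33.9 and 57.5 CPM (log2 difference -2.10, SE 0.79, adjusted p = 0.419), as was the stress-induced Sesn3, at 1.2 and 0 against 5.79 and 6.07 CPM. Over 21 AMPK subunit and upstream genes, 4 were higher (19.0%) and 6 lower (28.6%), beside 10.8% and 29.8% of all genes. Their median of 0.07 took the other sign in 7 of 21 settings.

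Among 25 AMPK substrates and effectors, 3 were higher and 3 lower in both, with a median of 0.03. Mlycd, which breaks down malonyl-CoA and so relieves the brake on carnitine-dependent fatty acid import, was among the genes with the lowest p of all, at 181 and 56 against 4.34 and 5.49 CPM (log2 difference 4.59, SE 1.06, adjusted p = 0.419). Txnip, an inhibitor of glucose uptake and of thioredoxin, was lower in both, at 55.9 and 13.1 against 132 and 167 CPM (log2 difference -2.10, SE 0.89, adjusted p = 0.419), and overlaps the predicted gene Gm15441. Tbc1d4, a brake on glucose transporter traffic, had 3 counts in total in the c-Myc-high group, at 0.48 and 0.933 against 6.03 and 7.22 CPM, and its pooled c-Myc-low level was 11.1 times (95% interval 3.67 to 55.2) the c-Myc-high level. Tsc2, which restrains mTORC1, overlapped narrowly, at 395 and 47.6 against 53 and 36.4 CPM.

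Antioxidant genes lay on both sides. 7 of 51 were higher in both (13.7%) and 7 lower (13.7%), beside 10.8% and 29.8% of all genes. Of the 33 abundant members 6 were higher and 4 lower, beside 18.3% and 17.1% of abundant genes. The list median was 0.19, -0.15 without c-Myc-high replicate 1 and -0.17 without replicate 2. Nfe2l2, which encodes the antioxidant regulator Nrf2, overlapped, at 480.03 and 106 against 142 and 248 CPM. Its inducible target Hmox1, heme oxygenase, was higher in both, at 27.4 and 52.2 against 8.92 and 11 CPM (log2 difference 1.99, SE 1.25, adjusted p = 0.523). Gpx4, which detoxifies lipid peroxides, was higher in both, at 139 and 20.5 against 6.99 and 8.09 CPM (log2 difference 3.41, adjusted p = 0.419), and was the 1 member of the list that DESeq2 called. Glrx5, a mitochondrial glutaredoxin, was higher too, at 82.3 and 259 against 25.9 and 8.67 CPM, and Mgst1, a membrane glutathione transferase, lower, at 2.4 and 0 against 19.2 and 25.7 CPM (log2 difference -3.90, SE 1.27). Mt1, a metallothionein, had 962 and 55 against 30.7 and 55.8 CPM, with replicate 2 inside the c-Myc-low range.

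Mitotic genes followed c-Myc-high replicate 1. Their summed level was 7381 and 864 against 1423 and 2107 CPM, and replicate 1 alone was above both c-Myc-low libraries for 28 of 33 genes while replicate 2 was below both for 26. The median of 0.75 became -1.09 without replicate 1. In both c-Myc-high libraries 6 of the genes were higher (18.2%) and 3 lower (9.09%), beside 10.8% and 29.8% of all genes. Among the 24 abundant members 5 were higher and 0 lower, beside 18.3% and 17.1% of abundant genes. The higher count thus lay near the share of abundant genes. It included Cdc20, the activator of the anaphase-promoting complex, at 206 and 56 against 15.6 and 16.2 CPM (log2 difference 3.05, SE 1.15, adjusted p = 0.419), and Cdca8, a chromosomal passenger protein, at 109 and 28.9 against 22.2 and 16.8 CPM. Top2a, the replication-linked topoisomerase, overlapped, at 746 and 135 against 138 and 184 CPM. Cdc20 shares exon sequence with Elovl1, and Cdca8 with a predicted gene.

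Of 39 DNA replication genes, 6 were higher (15.4%) and 12 lower (30.8%) in both, beside 10.8% and 29.8% of all genes. Among the 16 abundant members 6 were higher and 2 lower, beside 18.3% and 17.1% of abundant genes. Prim1, the primase subunit that starts each new strand, had 127 and 417 against 26.6 and 42.8 CPM (log2 difference 2.97, SE 0.85, adjusted p = 0.419), and Rfc5 of the clamp loader had 154 and 91.4 against 19.9 and 20.2 CPM (log2 difference 2.61, SE 0.83, exons shared with Wsb2). Rfc4, another subunit of the same loader, had 0 and 0 against 15.2 and 9.54 CPM and was at least 23.6-fold lower, but its exons overlap those of Eif4a2. Gins3, of the replicative helicase, had 0 and 0 against 8.68 and 4.33 CPM and was at least 12.9-fold lower. The 2 clamp loader subunits thus lay on opposite sides.

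CDK inhibitors and p53 targets did not stand out from other genes by their counts. Of 23 CDK inhibitor and p53 target genes, 5 were lower in both (21.7%) and 2 higher (8.7%), beside 29.8% and 10.8% of all genes. Ccng1, a p53-induced cyclin, had 12.2 and 13.1 against 58.1 and 127 CPM (log2 difference -2.87, SE 0.94, adjusted p = 0.419), Trp53inp1 had 17.5 and 43.8 against 139 and 102 CPM (log2 difference -1.99, SE 0.85), and the CDK inhibitor Cdkn1b (p27) had 14.4 and 27.1 against 55.9 and 56.6 CPM (log2 difference -1.45, SE 0.79). Cdkn2d (p19) had no count in c-Myc-high replicate 1 and the highest value in replicate 2, at 0 and 604 against 18.7 and 5.49 CPM. None of 25 apoptosis regulators was higher in both (0.0%) and 9 were lower (36.0%), beside 10.8% and 29.8% of all genes. The lower share was thus not far from that of all genes, and 2 of the 9 had no count in either c-Myc-high library. Among the lower ones were the protective Bcl2, Bcl2l2, Xiap, Birc2 and Birc5, the executing Apaf1 and the paralogs Bcl2a1a and Bcl2a1b. The apoptosome scaffold Apaf1 had 2.64 and 9.33 against 31.7 and 17.9 CPM and the inhibitor Birc2 0.72 and 20.5 against 43.9 and 48.8 CPM. The median of -0.76 was negative in all 21 settings. Of the 11 abundant members 0 were higher and 3 lower, beside 18.3% and 17.1% of abundant genes. Bax, which permeabilises mitochondria, had 0 and 133 against 6.51 and 7.51 CPM and overlapped.

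MAPK output genes were the pathway list with the highest median, 1.05, beside 0.46 over abundant genes. Of 20 members, 4 were higher and 0 lower in both, beside 10.8% and 29.8% of all genes. Of the 17 abundant members 3 were higher and 0 lower, beside 18.3% and 17.1% of abundant genes. By count the list thus did not stand out on the higher side among abundant genes. The ERK phosphatase Dusp6 had 139 and 339 against 45.6 and 40.5 CPM (log2 difference 2.47, SE 1.41, adjusted p = 0.486) and Phlda1 had 488 and 119 against 54 and 25.7 CPM (log2 difference 2.93, SE 1.34, adjusted p = 0.427, exons shared with a predicted gene), and the others were Etv1 and Epha2. Dusp4 and Dusp5, also ERK phosphatases, overlapped, with high values in c-Myc-high replicate 1 alone, at 129 and 0.933 against 3.38 and 4.91 CPM and 85.4 and 1.87 against 3.38 and 4.91 CPM. Without that replicate the list median was 0.25.

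Immediate early genes, which sorting and tissue dissociation can raise, gave 6 of 27 higher (22.2%) and 2 lower (7.41%), beside 10.8% and 29.8% of all genes. Of the 25 abundant members 6 were higher and 2 lower, beside 18.3% and 17.1% of abundant genes. Jund had 161 and 68.1 against 17.8 and 21.4 CPM (log2 difference 2.55, SE 0.96, adjusted p = 0.419), Socs3 had 119 and 86.8 against 33.6 and 32.7 CPM, and Junb was lower in both, at 10.6 and 16.8 against 54.9 and 24.6 CPM. Junb and Jund each share exon sequence with another gene. Of 30 ATF4 and ER stress genes, 6 were higher and 5 lower. Ddit3, the stress-induced factor CHOP, had 49.4 and 49.4 against 15.4 and 5.49 CPM (log2 difference 2.23, SE 1.09, adjusted p = 0.44, exons shared with Mars), and Vldlr, a lipoprotein receptor, had 1.68 and 0 against 31.9 and 32.9 CPM (log2 difference -4.90, SE 1.64, adjusted p = 0.419). Psph, the last enzyme of serine synthesis, was lower in both, at 6 and 1.87 against 32.9 and 21.1 CPM, with exons that overlap Cct6a. Of 33 lysosome and autophagy genes, 7 were higher (21.2%) and 8 lower (24.2%), beside 10.8% and 29.8% of all genes. The autophagy conjugation partners Atg5 and Atg12 were both lower, at 3.12 and 4.66 against 13.4 and 47.1 CPM and 4.32 and 0 against 23.3 and 29.8 CPM, as was the lysosomal hydrolase Neu1, at 1.68 and 0 against 5.43 and 8.96 CPM.

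Interferon response genes leaned lower by count. None of 27 was higher in both and 11 were lower (40.7%), beside 10.8% and 29.8% of all genes. Of the 11 lower, 3 had no count in either c-Myc-high library. The lower genes included Irf1, Irf7, Ifit1, Ifit3, Mx1, Mx2, Usp18, Gbp3, Cxcl9 and Cxcl10. Most of them were scarce: among the 10 abundant members, 1 was lower in both, beside 17.1% of abundant genes. Ifit1 had 0 and 0 against 2.53 and 2.31 CPM and was at least 4.31-fold lower, and Mx2 had 0 and 0 against 4.1 and 2.31 CPM and was at least 6.24-fold lower. Irf7, a transcription factor of the interferon response, had 0.24 and 3.73 against 4.46 and 4.33 CPM and was chosen after its values were seen. Bst2 differed between the c-Myc-high replicates, at 0 and 268 against 2.65 and 2.02 CPM. Replicate 1 alone was above both c-Myc-low libraries for 9 members and replicate 2 for 3, and the summed level of the list overlapped, at 1080.1 and 507 against 581 and 615 CPM. The median of -0.41 was negative in all 21 settings. The summed level of the pan-leukocyte markers, given with the other cell types below, was 207 and 44.8 against 47.6 and 81.2 CPM and came mostly from Arhgdib, at 138 and 34.5 against 26 and 51.1 CPM. Of 10 such markers 1 was higher and 3 were lower in both, and their part in the interferon values was not tested. B2m, the light chain of MHC class I, had 1016 and 1182 against 1419 and 3826 CPM and was lower in both. Of 15 class I presentation genes 2 were higher (13.3%) and 4 lower (26.7%), beside 10.8% and 29.8% of all genes.

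Integrin and laminin chains, which tie cells to matrix, had 11 of 26 lower (42.3%) and 4 higher (15.4%) in both, beside 29.8% and 10.8% of all genes. Of the 16 abundant members 4 were lower and 3 higher, beside 17.1% and 18.3% of abundant genes. The list median was 0.21, -1.35 without c-Myc-high replicate 1 and 0.86 without replicate 2. Replicate 1 alone was above both c-Myc-low libraries for 14 members and below for 12, and replicate 2 for 5 and 19. Itga1, a collagen-binding integrin, had 0.72 and 0.933 against 7.11 and 8.67 CPM (log2 difference -3.27, SE 1.13, adjusted p = 0.419) and Itgb8 had 9.84 and 1.87 against 17.4 and 35 CPM. By contrast Lama4, a laminin chain of vessel walls, was higher in both, at 105 and 36.4 against 9.16 and 15.9 CPM (log2 difference 2.50, SE 0.90, adjusted p = 0.419), as was Lamc1, a chain that most laminins share, at 459 and 64.4 against 58.4 and 45.9 CPM (log2 difference 2.33, SE 0.95, adjusted p = 0.419), and Lama3, of the epithelial basement membrane, was lower, at 99.4 and 92.4 against 194 and 291 CPM. Among dedifferentiation and mesenchymal genes, 6 of 24 were higher and 2 lower. Vim, the mesenchymal intermediate filament, had 833 and 404 against 78.6 and 173 CPM (log2 difference 2.30, SE 0.92, adjusted p = 0.419) and Fn1, fibronectin, 86.4 and 779.9 against 38.3 and 64.2 CPM (log2 difference 3.08, SE 0.99, adjusted p = 0.419, called by DESeq2). Ngfr, a neural crest receptor of dedifferentiated melanoma, was lower in both, at 4.32 and 0.933 against 8.32 and 17.3 CPM, and Nes, nestin, was nearly absent, at 0.24 and 0 against 2.17 and 4.62 CPM, its pooled c-Myc-low level 15.2 times (95% interval 2.54 to 616) the c-Myc-high level. Summed fibroblast markers beside Fn1 and Vim were 2477 and 7129.7 against 1939.8 and 3832 CPM, and the part they play in those values was not tested.

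**Figure D2:**
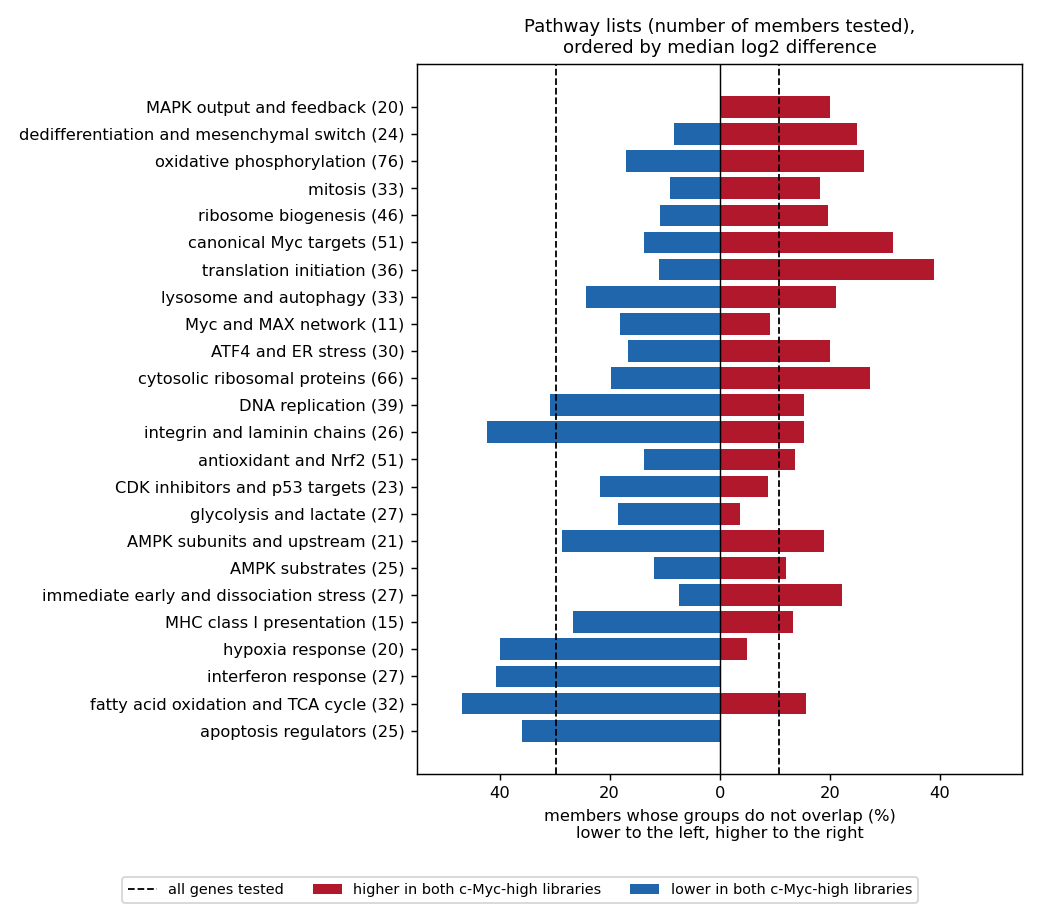
Share of tested members (%, number tested in brackets) whose values were lower (left) or higher (right) in both c-Myc-high libraries than in both c-Myc-low libraries, with dashed lines at 29.8% and 10.8% for all genes tested. Translation initiation (38.9%) and canonical Myc targets (31.4%) reach furthest to the right, and fatty acid oxidation and TCA cycle (46.9%) furthest to the left.

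**Figure D3:**
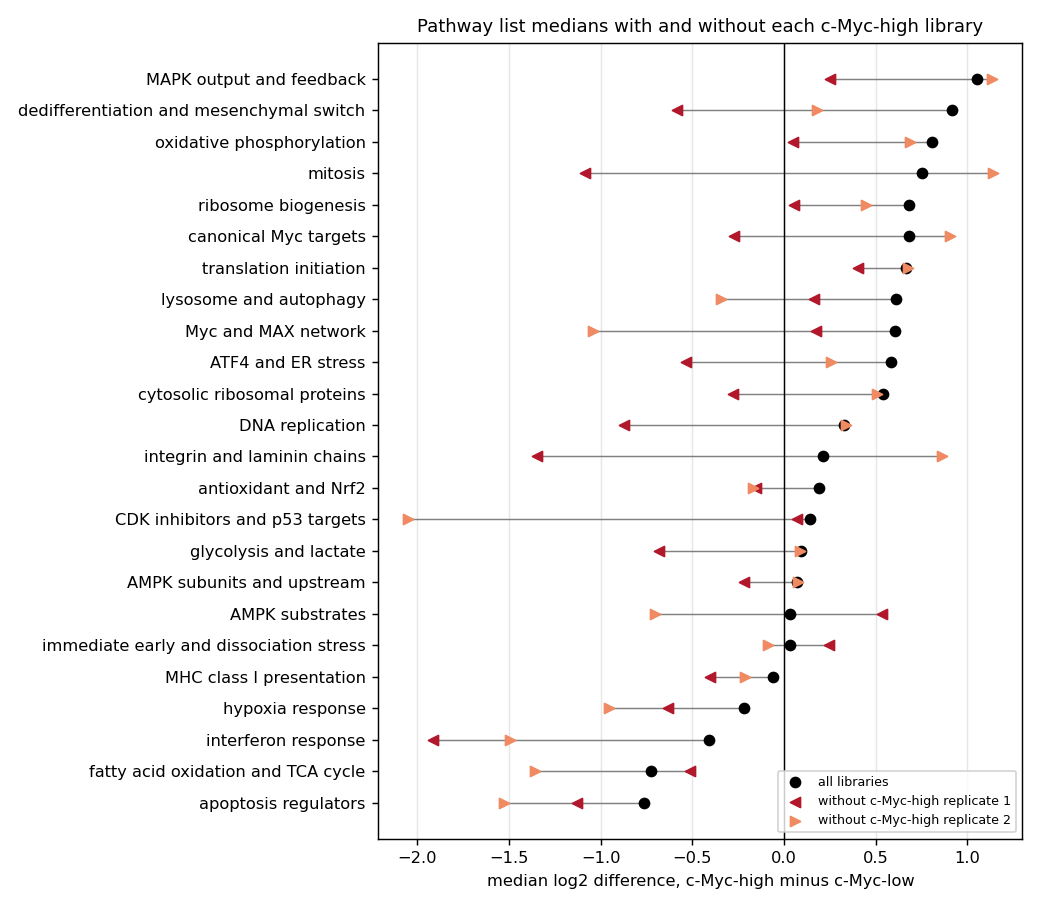
Median log2 difference, c-Myc-high minus c-Myc-low, of each pathway list with all libraries (black) and with either c-Myc-high library left out (coloured triangles). Mitosis swings from -1.09 to 1.14, while translation initiation stays between 0.41 and 0.68 and apoptosis regulators, interferon response and fatty acid oxidation stay negative.

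The cells were checked against markers of melanocytes and of other skin cells. The defining melanocyte genes were present in all 4 libraries. Mitf, the lineage regulator, had 35.8 and 8.4 against 15.4 and 22.5 CPM, Sox10 294 and 13.1 against 15.8 and 35 CPM, Tyr, the first enzyme of melanin synthesis, 175 and 21.5 against 68.7 and 143 CPM and Dct, a later one, 815 and 353 against 242 and 306 CPM. Only Dct of these 4 was higher in both. Over the list, 3 of 25 were higher and 4 lower in both, replicate 1 of the c-Myc-high group was above both c-Myc-low libraries for 17 and replicate 2 below both for 18, and the summed level was 6000.1 and 1107 against 1623 and 2216 CPM.

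Keratinocyte markers were abundant throughout. Summed basal markers, 15 genes, were 41534 and 61949 against 19295 and 15725 CPM and summed suprabasal markers, 26 genes, 27919 and 43297 against 31140.2 and 14244 CPM. Scaled to transcript length, the basal markers summed to 5103 and 1960.3 against 2575 and 949.8 RPKM and the 25 melanocyte markers to 460.2 and 21.2 against 159.8 and 102 RPKM, so the epithelial sum exceeded the pigment cell sum in every library of cells labelled as melanoma. Krt14, the basal keratin, had 13210.0 and 991 against 3607 and 2355 CPM and Krt1, the suprabasal keratin, 15609 and 7141 against 12843 and 5911 CPM, and both overlapped. Sfn, an epithelial 14-3-3 protein, was higher in both and carried most of the basal sum in replicate 2, at 2679 and 51795 against 347 and 115 CPM (log2 difference 6.88, SE 2.27, adjusted p = 0.419). Among suprabasal markers, Lor (loricrin) was higher in both, at 401 and 223 against 40.1 and 20.5 CPM (log2 difference 3.36, SE 0.93, adjusted p = 0.419) as was Lgals7 (galectin-7), at 1135 and 1081 against 155 and 55.2 CPM (log2 difference 3.40, SE 1.08, adjusted p = 0.419), and DESeq2 called both. 8 of 26 suprabasal markers were higher (30.8%) and 4 lower (15.4%) in both, beside 10.8% and 29.8% of all genes. Their median of 1.03 was -0.06 without c-Myc-high replicate 2. How far epidermal RNA takes part in the pathway values above was not tested.

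Fibroblast and erythroid markers were highest by CPM in c-Myc-high replicate 2, while endothelial and pan-leukocyte sums were highest in replicate 1. Col1a1, the main fibrillar collagen chain, had 0.72 and 2436 against 29.9 and 76.9 CPM, and 15 of 17 fibroblast markers were above both c-Myc-low libraries in replicate 2, while 10 were below both in replicate 1. The fibroblast median was 1.89, and -3.67 without replicate 2. In the deposited RPKM, however, the fibroblast markers summed to 219 and 86.3 against 191 and 186 RPKM, with replicate 2 the lowest. The basal keratinocyte sum, too, was highest in replicate 2 by CPM but not by RPKM, while the erythroid sum was highest there in both units. Deposited RPKM does not carry the TMM factors used for CPM. The fibroblast rank of replicate 2 thus depends on the unit, and the cause of that gap was not tested. Erythroid genes, mostly globins, summed to 3.6 and 1619 against 25.7 and 85 CPM. Leukocytes were scarce by Ptprc, the pan-leukocyte phosphatase CD45, at 2.88 and 0.933 against 0.723 and 2.31 CPM. Of 15 T cell markers 0 were higher and 6 lower in both, beside 10.8% and 29.8% of all genes. Their sum was nonetheless highest in c-Myc-high replicate 1, at 325 and 64.4 against 92.1 and 119 CPM. Dendritic and Langerhans cell markers summed to 1574 and 10.3 against 176 and 326 CPM. Epcam, a member of that list, had 860 and 1.87 against 78.2 and 145 CPM. Pecam1, the endothelial adhesion molecule CD31, had 1.2 and 3.73 against 2.17 and 4.62 CPM, and summed endothelial markers were 903 and 29.9 against 35.6 and 61.8 CPM, with Flt1 alone at 878 and 0 against 16.9 and 33.5 CPM.

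**Figure D4:**
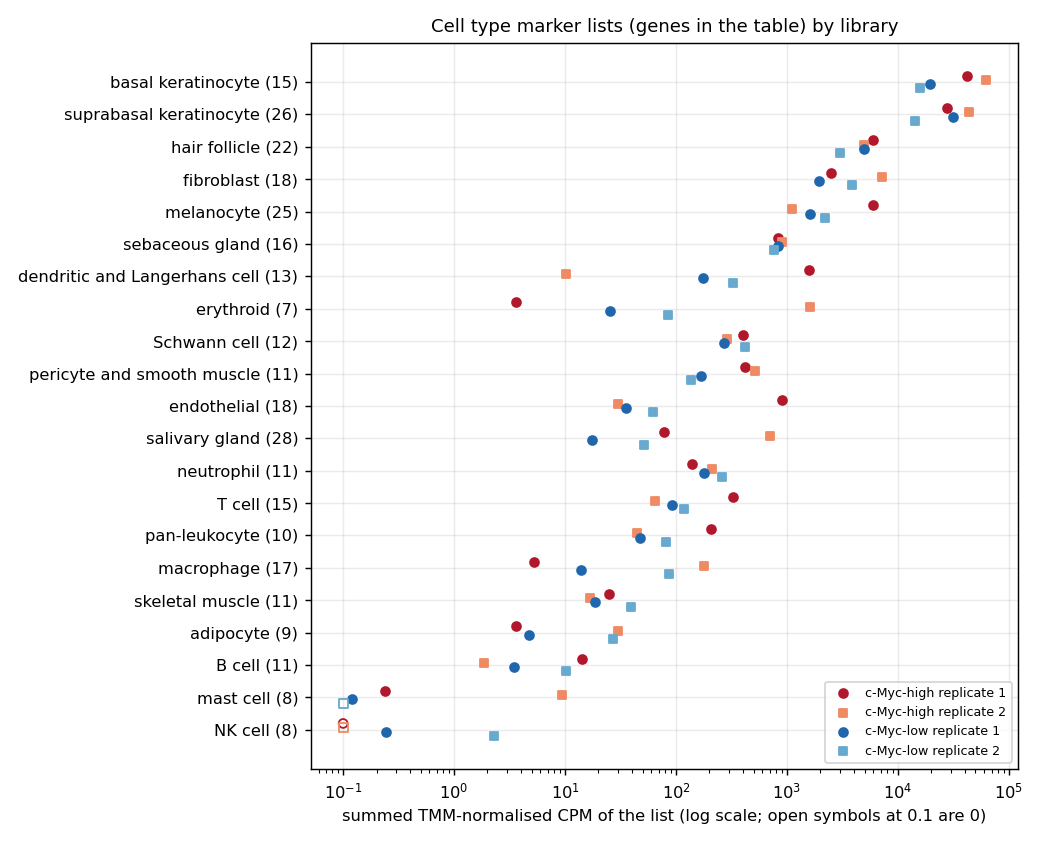
Summed TMM-normalised CPM (log axis) of 21 cell type marker lists in the 4 primary tumour libraries, number of genes in the table in brackets. Keratinocyte sums are the highest in all 4 libraries, and the erythroid sum runs from 3.60 CPM in c-Myc-high replicate 1 to 1619 CPM in replicate 2.

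The genes with the lowest p are given next. They are the 12 per direction with mean log2 CPM above 2 and no overlap, predicted genes left out. None passed, each with an adjusted p of 0.419, and they are a description of what stood out in these 4 libraries. The higher ones begin with Syvn1 (chr19:6046576-6053712), the ubiquitin ligase of ER-associated degradation, at 673 and 426 against 46.5 and 17 CPM (log2 difference 4.11, SE 0.90), whose exons overlap Mrpl49. Mlycd, described above, lies at chr8:119394878-119411102. Trim30a (chr7:104409025-104465193), an interferon-inducible TRIM protein, had 13 and 489 against 0.965 and 3.18 CPM and so differed widely between its c-Myc-high replicates. Metabolic genes were Fah (chr7:84585159-84606722), the last enzyme of tyrosine breakdown, at 79.4 and 73.7 against 3.13 and 4.05 CPM (log2 difference 4.41, SE 1.15), and Fads3, a fatty acid desaturase family member, at 141 and 1.87 against 0.241 and 0.867 CPM. Fah was almost equal in the c-Myc-high libraries, while Fads3 had only 2 counts in c-Myc-high replicate 2. Timm13, a chaperone of mitochondrial protein import, had 214 and 46.6 against 11.3 and 7.8 CPM, and Psmg3, a proteasome assembly chaperone, 21.1 and 328 against 7.11 and 5.2 CPM.

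Further higher genes act on RNA and chromatin. Smg6, the endonuclease of nonsense-mediated decay, had 697 and 252 against 65.6 and 42.5 CPM, and Kdm6b, a demethylase of histone H3 lysine 27, 646 and 687 against 106 and 46.2 CPM (log2 difference 3.12, SE 0.80). Rsbn1l had 255 and 173 against 19.9 and 25.7 CPM. Kdm6b and Rsbn1l were close between replicates of the c-Myc-high group. Bfsp1, known as a lens filament protein, had 119 and 31.7 against 1.33 and 2.02 CPM, and Fam19a5, a secreted neural protein, had no count in either c-Myc-low library, at 55.2 and 0.933 against 0 and 0 CPM, and only 1 count in c-Myc-high replicate 2. Exons of Smg6, Timm13, Kdm6b, Rsbn1l and Psmg3 overlap those of another annotated gene, so their values are uncertain.

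Of the 12 lower genes, 7 had no count in either c-Myc-high library: Pop4, Slc10a3, Cstf2t, Dpp7, Ddt, Phka1 and Tnfaip8l3. Slc10a3 (chrX:74369217-74373349) had 68.5 and 64.7 CPM in the c-Myc-low libraries and was at least 118-fold lower, though its exons overlap Ubl4a. Tnfaip8l3 (chr9:54023405-54068388), a phosphoinositide transfer protein, had 46.4 and 27.5 CPM and was at least 71.3-fold lower. Phka1, a phosphorylase kinase subunit that turns on glycogen breakdown, had 9.52 and 26.9 CPM and was at least 25.5-fold lower. Pop4, a protein of RNase P, had 15.9 and 27.5 CPM (at least 33.7-fold lower), and Cstf2t, a polyadenylation factor paralog, 12.5 and 14.7 CPM (at least 23-fold lower). Dpp7, a lysosomal peptidase, was at least 19.9-fold lower and Ddt, a relative of the cytokine MIF, at least 19.8-fold lower. The lower group thus held lysosomal, glycogen and RNA processing genes side by side.

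Pex5 (chr6:124396816-124415067), the import receptor for peroxisomal enzymes, had the lowest p of all named genes, at 1.44 and 0 against 71 and 45.9 CPM (log2 difference -5.91, SE 1.11). Nrbp1, a pseudokinase, was low but present in both c-Myc-high libraries, at 3.84 and 4.66 against 94.5 and 35.8 CPM (log2 difference -3.95, SE 0.85), and Osbpl11, a lipid transfer protein, had 0.48 and 1.87 against 34.6 and 28.9 CPM. Naa10, the catalytic subunit of the main N-terminal acetyltransferase, had 1 c-Myc-high count, at 0.24 and 0 against 54.6 and 14.2 CPM, and its pooled c-Myc-low level was 224 times (95% interval 40 to 8850.0) the c-Myc-high level. Wash, of the complex that nucleates actin on endosomes, had 0.48 and 0 against 30.7 and 24.9 CPM, with a ratio of pooled levels of 76 times (95% interval 20.9 to 630.0). These intervals cover counting error only. Exons of Pop4, Naa10, Nrbp1 and Ddt overlap those of another annotated gene.

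**Figure D5:**
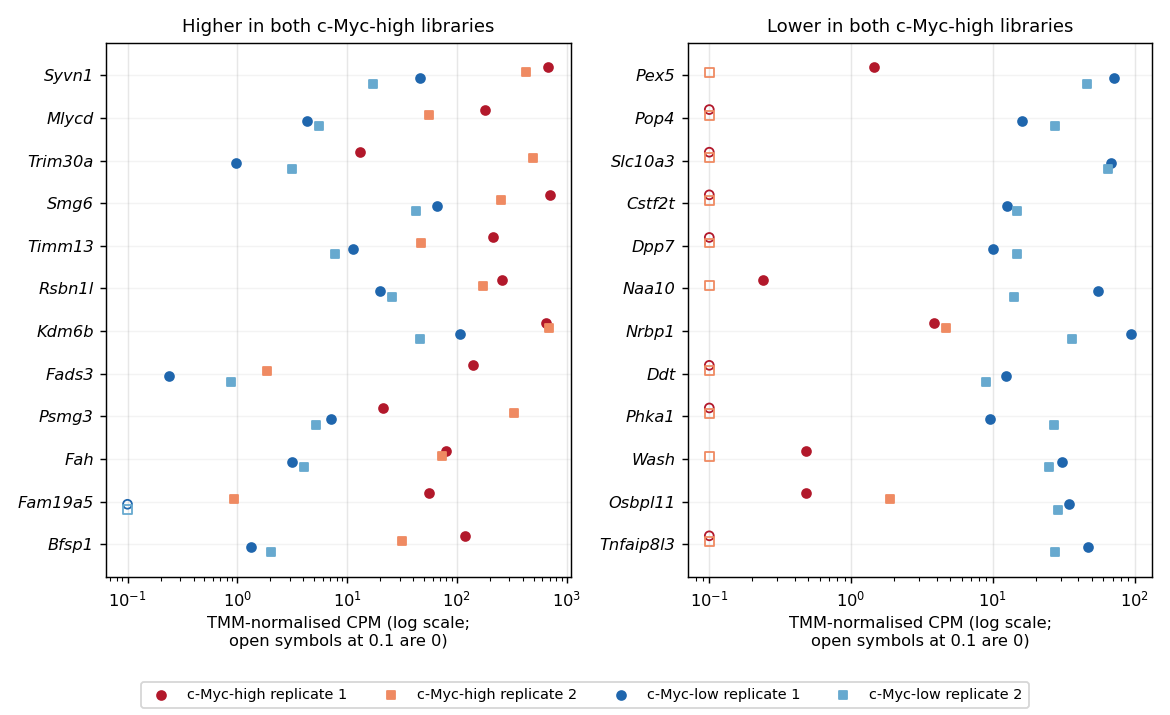
TMM-normalised CPM (log axis, open symbols at 0.1 stand for 0) of the 12 higher (left) and 12 lower (right) genes with the lowest p that did not overlap between the classes, 1 point per library. None passed the adjusted test, 7 of the 12 lower genes have open symbols in both c-Myc-high libraries, and Trim30a and Fads3 differ widely between the c-Myc-high replicates.

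By RPKM, the scale that allows levels of different genes to be set side by side, the most abundant names in both classes were short or mitochondrial-like predicted genes. Gm20594 had 6268 and 2664 RPKM in the c-Myc-high and 23482 and 18938 RPKM in the c-Myc-low libraries, lower in both. Mir5105, a microRNA name, led the c-Myc-high group with 7522 and 4667 RPKM against 2274 and 42.1 RPKM. Malat1, an abundant nuclear noncoding RNA, was the 1 well-known gene among the top 5 of either group, with 3824 and 1158 against 2758 and 2166 RPKM, and overlapped. Gm10222, Gm13340 and Gm13341 in the c-Myc-high group, and Gm13340, Gm11512 and AC087541.1 in the c-Myc-low group, made up the rest.

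The c-Myc contrast in the primary tumours was set beside that of the metastases, which uses other libraries throughout. No gene passed the test of the difference between the 2 contrasts, 0.0% in either direction, with a lowest adjusted p of 0.578. At an unadjusted p under 0.05, 354 genes (2.11%) had a more positive and 796 (4.74%) a more negative contrast in the primary tumours. Over genes, the 2 sets of log2 differences correlated at r = 0.208. For Myc the log2 difference was 0.00 (SE 0.79) in the metastases, and the difference of the contrasts was 1.20 (SE 1.25, adjusted p = 0.881). Lists with a positive median at both sites included translation initiation, with a metastatic median of 0.49, oxidative phosphorylation (0.70), ribosomal proteins (0.62), ATF4 and ER stress (0.51), DNA replication (0.38), mitosis (0.34), ribosome biogenesis (0.26) and canonical Myc targets (0.39). Over the abundant genes the median was itself 0.46 in the primary tumours and 0.02 in the metastases. Without primary c-Myc-high replicate 1, the primary medians turned negative for ribosomal proteins (-0.28), canonical Myc targets (-0.27), ATF4 and ER stress (-0.53), DNA replication (-0.87) and mitosis (-1.09). They stayed positive for translation initiation (0.41), oxidative phosphorylation (0.05) and ribosome biogenesis (0.05). Npm1 and Ptma had log2 differences of 3.36 (SE 1.15) and 3.09 (SE 1.24) in the metastases. Both rest on c-Myc-high replicate 3 there: Npm1 had 25.8, 8.97 and 300.2 against 8.04, 14.4 and 10.1 CPM and Ptma 9.42, 16.7 and 256 against 12.6, 8.88 and 11.4 CPM, and both overlapped. Fatty acid oxidation and TCA cycle genes had a metastatic median of 0.29, apoptosis regulators 0.16, interferon response genes 0.01 and MAPK output genes -0.03, beside -0.73, -0.76, -0.41 and 1.05 in the primary tumours. Whether these lists differ between the sites was not tested as lists. Among the genes named above, Lor had a metastatic log2 difference of -0.88 (SE 0.95), and its difference of contrasts was 4.24 (SE 1.31, adjusted p = 0.725).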

How the data were processed

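The authors deposited 1 table of 92214 transcript rows under 34162 gene names, with estimated counts and RPKM for each library. Per the submitters' processing notes, reads were handled with Bowtie2 and limma on mm10, with no versions stated. The sources used here name neither the tool that assigned counts nor its strand setting. Deposited RPKM values were summed by gene name and used for levels between genes and as an alternative unit (log2 of RPKM plus 1 or 0.1).

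Estimated counts were summed by gene name and rounded. edgeR 4.0.16 (R 4.3.3; TMM factors, filterByExpr, robust quasi-likelihood F test) was fitted to all 10 libraries in 4 groups with 1 shared spread (common biological coefficient of variation 0.876), and p-values were adjusted by Benjamini-Hochberg over 16805 genes. The call threshold was an adjusted p of 0.05. Alternatives were DESeq2 1.42.0, limma 3.58.1 (voom with quality weights, trend), other factors and filters, the top transcript row, a replicate block and each library left out. The fits were tested on simulated data. A gene with 0 counts in a group got a floor of 3 counts over that group, and with 1 to 3 counts a ratio with an exact 95% interval, both with counts and depths pooled over each group's libraries. They reflect counting error alone.

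Groups came from the labels' sort class and tissue. Named genes were a panel of 20 (Myc, Max, targets, AMPK, antioxidant and cell type genes), the 12 per direction with the lowest p, mean log2 CPM above 2 and no overlap, the 4 lowest-p members of each list described, and the 5 most abundant by RPKM. Other members, where named, were chosen after their values were seen, and some genes are not reported here. The genes and the 45 lists (24 pathway, 21 cell type) were chosen with earlier results of these data known. Positions come from GENCODE M21 on GRCm38, and promoters from the RefSeq table on GRCm38.p6.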

Additional observations from a re-analysis of the deposited data

How the results depend on the processing

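The 4 primary libraries limit what can be called. Each group holds 2, the c-Myc-high libraries correlated less with each other (0.621) than with the c-Myc-low ones (0.732 to 0.754), and with depths of 1603012 to 6844328 counts a gene under 3 counts cannot be told from an absent one. No gene passed in edgeR with RLE or upper quartile factors, a stricter filter, the 4 primary libraries alone, the top transcript per gene, the replicate block, or any library left out. DESeq2 called 398 genes (197 higher, 201 lower), limma-voom with quality weights 2, edgeR without a filter 2, and limma-trend on log2(RPKM + 1) 11 and on log2(RPKM + 0.1) 5. For the difference between sites, DESeq2 called 84 and edgeR without a filter 1, and the other settings 0. The cause of these gaps was not tested.

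At an unadjusted p under 0.05, RLE factors gave 910 higher and 1062 lower and upper quartile factors 539 and 1473, beside 721 and 1232. Genes without overlap numbered 2468 to 5716 higher and 6338 to 8875 lower with 1 library left out, beside 1817 and 5006 with all 4, since fewer values must agree. RLE factors gave 2257 and 4444, and upper quartile factors 1570 and 5494. The gap in genes detected stayed between -2893.5 and -3707.

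With the replicate block the count was 0, and 239 genes were higher and 586 lower at an unadjusted p under 0.05. Whether equal replicate numbers pair the skin libraries cannot be settled. Deviations from the group mean mirror each other there, and correlated at 0.0775 for equal and -0.0775 for unequal numbers. In the lymph nodes the values were 0.0871, -0.193 and -0.305 for equal numbers. Unequal numbers there ran from -0.487 to 0.556.

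Of 174 genes named above, 147 kept their sign in every setting that measured them. Many were named for a low p or for values without overlap in these same libraries. Such a choice leaves little room for the sign to change, so this number is no support for the differences. DESeq2 called 38 of them, and Slc10a3 also passed in edgeR without a filter. Leaving out c-Myc-high replicate 1 changed the sign of these log2 differences, given as ranges over all libraries left out in turn: Arhgdib (-0.024 to 1.73), Dusp4 (-1.98 to 4.87), Dusp5 (-0.997 to 4.27), Eno1 (-0.75 to 2.90), Flt1 (-10.03 to 5.02), Krt1 (-0.25 to 0.92), Krt14 (-1.44 to 2.07), Mitf (-1.03 to 0.82), Mxd1 (-1.25 to 2.99), Myc (-1.08 to 1.95), Nfe2l2 (-0.74 to 1.20), Odc1 (-2.84 to 3.001), Pecam1 (-1.55 to 0.30), Prkaa2 (-1.06 to 0.81), Ptprc (-0.48 to 1.49), Sox10 (-0.82 to 3.44), Tcof1 (-0.47 to 3.56) and Top2a (-0.11 to 2.12). Leaving out replicate 2 did so for Bax (-8.27 to 4.39), Bst2 (-6.70 to 6.96), Cdh1 (-0.54 to 2.79), Cdkn2d (-9.04 to 5.78), Col1a1 (-6.27 to 5.65), Gata3 (-0.63 to 3.53), Mcam (-0.79 to 5.67) and Tyr (-2.16 to 0.62). The sign also changed with log2(RPKM + 1) for Krt1 (-0.52), Krt14 (-0.43), Mitf (-0.002), Myc (-0.18) and Nfe2l2 (-0.37); with log2(RPKM + 0.1) for Bax (-0.84), Cdkn2d (-0.054), Krt1 (-0.52), Krt14 (-0.44), Mitf (-0.33), Myc (-0.33) and Nfe2l2 (-0.52); with limma-voom for Bax (-3.63), Bst2 (-1.91), Cdkn2d (-3.90), Col1a1 (-3.47) and Tyr (0.24); with the top transcript for Prkab1 (-1.63) and Tcof1 (-2.59); with the replicate block for Bax (-0.011) and Mitf (-0.050); and with upper quartile factors for Mitf (-0.083).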

Other observations

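Some marker lists are shown above by their sums alone, and their members are given here. Salivary gland genes, of which glandular kallikreins form the larger share, were rare and followed c-Myc-high replicate 2. They summed to 78.5 and 698 against 17.5 and 51.4 CPM, and 7 of 26 were higher and 1 lower in both c-Myc-high libraries, beside 10.8% and 29.8% of all genes. The kallikrein Klk1 had 1.2 and 53.2 against 0.121 and 0.289 CPM and the secretory gene Smr3a 11 and 212 against 1.69 and 6.07 CPM. Kallikrein paralogs are near-identical, so single values are uncertain. The list was chosen with results of these data known.

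Hair follicle genes had 1 of 15 higher and 6 lower in both. Gata3, a regulator of the inner root sheath, overlapped, at 249 and 3807 against 395 and 331 CPM, and shares exon sequence with an antisense gene. The homeobox gene Msx2 had 0 and 0 against 5.18 and 6.07 CPM and was at least 9.51-fold lower, by the floor of 3 counts over the c-Myc-high group. Among mural cell genes, Mcam had 3.36 and 255 against 6.63 and 4.33 CPM and Rgs5 0.72 and 0 against 1.33 and 25.1 CPM. Of neural crest and Schwann genes, Foxd3, a neural crest regulator, had 16.1 and 1.87 against 0.844 and 1.44 CPM. Its value in c-Myc-high replicate 2 is only 2 counts, under the floor of 3, so the higher level rests on replicate 1. Cdh1, E-cadherin, had 412 and 3556 against 754 and 383 CPM. None of these passed the adjusted test.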
